A study of Homo sapiens with 12 samples.

Results

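SCC6 is an established cell line of head and neck squamous cell carcinoma (HNSCC), and the comparison described here is that of SCC6 cells given cetuximab with SCC6 cells given phosphate-buffered saline (PBS). Cetuximab is an antibody that binds the epidermal growth factor receptor (EGFR) and blocks its ligands. The cells were taken by the sample names that each cell barcode carries: 9724 of the 23914 cells of the series were SCC6 cells, with 2731 and 2486 cells in PBS replicates 1 and 2 and 2854 and 1653 cells in cetuximab replicates 1 and 2. The cetuximab cultures had received the antibody every day at 100 nM over 5 days and the PBS cultures the vehicle, and all were grown in the same serum-containing medium. Single-cell RNA sequencing (scRNA-seq) with droplet-based 3′ chemistry had been used, in which unique molecular identifiers (UMIs) count transcripts. The 2 other lines of the series, SCC1 and SCC25, with 8 samples, entered only to estimate the spread between replicates and to test where SCC6 differed. All cells come from 1 tumor line in culture, with no other cell type of a tumor present. The study's methods say that sequencing was in duplicate and do not say whether the 2 replicates of a group were separate cultures, so every p measures the spread between these samples, which may be technical.

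EGFR is activated by a family of ligands that squamous cells make themselves, and its signal runs through RAS and the MAPK cascade to transcription factors of the AP-1 and ETS families. These switch on genes that dampen the signal again, among them dual-specificity phosphatases, and also genes of the ligands. The same signal promotes ribosome production through MYC and keeps keratinocytes proliferating. A separate program, driven by the serum response factor (SRF) when actin assembles, covers the genes of actin filaments and contraction, and it is often seen beside genes of the extracellular matrix in cells with mesenchymal features.

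The SCC6 samples held 100360353 and 102796996 UMIs with PBS and 76008513 and 89989753 UMIs with cetuximab. The median number of UMIs per cell was 32438 and 38692 with PBS and 24079 and 50156 with cetuximab, so that the replicates of the cetuximab group differed more in depth per cell than the groups did. Samples shared between 2 and 10 cell barcodes in pairs. Of the squamous markers, KRT17, SFN, PERP, EPCAM, DSP, CDH1, CDH3 and TP63 were present in every sample, whereas DSG3 stayed under 1 CPM (counts scaled to a common library size) and the basal keratins KRT5 and KRT14 were low, KRT5 at 1.16 and 1.62 CPM in the PBS samples and at 4.47 and 3.92 CPM in the cetuximab samples and KRT14 at 0.931 and 0.424 CPM in the PBS samples and at 2.52 and 1.49 CPM in the cetuximab samples. The label of a squamous line thus rests on the other squamous genes, since the keratin pair that defines basal squamous cells was nearly absent. All 6 endothelial and all 4 blood and liver markers stayed under 1 CPM, and 7 of 9 leukocyte markers did so, the exceptions being CD68 and CD79A. CPM values are scaled with the normalization factors of the fit, and paired values are given for replicate 1 and then replicate 2, with PBS before cetuximab.

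PBS replicate 1 stood apart from the other samples in stress genes. HSPA6, a heat shock protein that is nearly silent in unstressed cells, was at 81.3 and 0.305 CPM in PBS replicates 1 and 2 and at 0.0386 and 0.111 CPM with cetuximab. DNAJB1, a co-chaperone, was at 410.1 and 111 CPM in the PBS samples and at 67.4 and 83.1 CPM in the cetuximab samples. For GDF15, a stress-induced cytokine, the values were 549.9 and 77.4 CPM against 20.9 and 33.3 CPM. PBS replicate 1 was also the highest sample for many of the genes that fell, and values without it are given beside many, but not all, of the results. The part of the stress genes' levels in these falls was not tested.

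To ask which genes differed between cetuximab and PBS, UMIs were summed per sample and 17897 genes were tested with edgeR. At a false discovery rate (FDR) under 0.05, 682 genes (3.81%) differed, 449 higher (2.51%) and 233 lower (1.3%) with cetuximab. All 682 had the same direction in both pairs of equal replicate number. Selection by a test on the same 4 samples favors this, so it is no separate support. Of the 682, 324 changed more than 4-fold, 231 upward and 93 downward. In a fit that blocked on the replicate number, 3589 genes (20.1%) passed, 1779 higher (9.94%) and 1810 lower (10.1%), and 681 of the 682 were among them. Counts of list members below are to be read beside these shares, which are much larger with the block. The count depended on single libraries: without PBS replicate 1 it was 11 genes, without cetuximab replicate 1 61, without cetuximab replicate 2 339 and without PBS replicate 2 749.

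Among the genes that rose most were genes of muscle-type actin filaments, secreted matrix proteins and growth factor binders. MYL7, a myosin light chain best known from the heart atrium, was at 1.12 and 4.29 CPM in the PBS samples and at 179 and 203 CPM in the cetuximab samples, a log2 fold change of 6.14 ± 0.66 (SE; edgeR FDR 0.00376), with 2 samples per group here and in all comparisons. Both cetuximab samples lay far above both PBS samples. IGFBP5, a secreted binder of insulin-like growth factors, stood at 2.85 and 22.5 CPM in the PBS samples and at 247 and 194 CPM in the cetuximab samples, with 4.12 ± 0.81 and FDR 0.024. The PBS replicates differed from each other here, yet both were below the cetuximab samples. COL5A1, a fibrillar collagen chain, was at 4.19 and 9.61 CPM in the PBS samples and at 132 and 89.7 CPM in the cetuximab samples (4.0 ± 0.58, FDR 0.00851). ANOS1, a secreted protein of the matrix, was at 1.93 and 3.6 CPM in the PBS samples and at 47.8 and 36 CPM in the cetuximab samples (3.92 ± 0.70, FDR 0.0177). VIM, which encodes the intermediate filament of mesenchymal cells, was at 33.6 and 92.8 CPM in the PBS samples and at 841 and 805 CPM in the cetuximab samples (3.7 ± 0.60, FDR 0.0122).

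**Figure D1:**
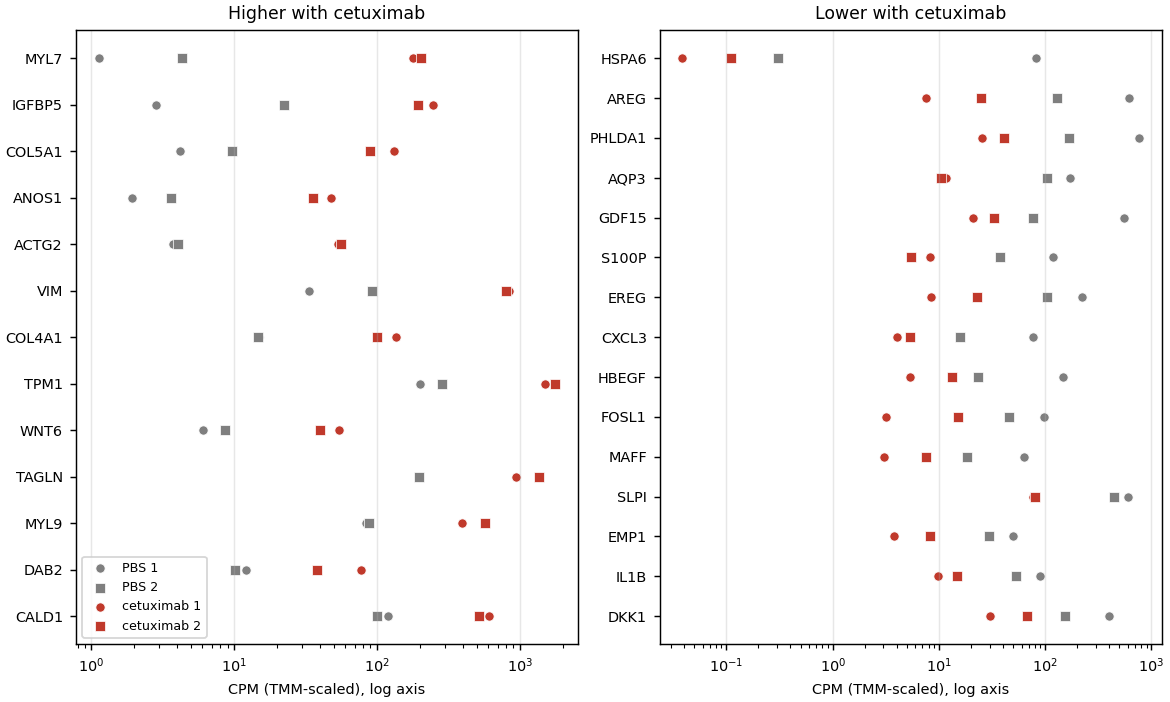
Level of 13 of the 15 genes with the largest rise and of the 15 with the largest fall among genes past the threshold with a mean of at least 20 CPM, in CPM on a log axis, with 1 point per sample (gray PBS, red cetuximab, circles replicate 1, squares replicate 2). In each gene both cetuximab samples lie on one side of both PBS samples, as in all 682 genes past the threshold, and HSPA6 is at 81.3 and 0.305 CPM in PBS replicates 1 and 2.

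Among the largest falls were ligands of EGFR and genes of its output, secreted proteins of epithelia and stress genes. AQP3, the water and glycerol channel of keratinocytes, was at 173 and 103 CPM in the PBS samples and at 11.7 and 10.4 CPM in the cetuximab samples (-3.65 ± 0.72, edgeR FDR 0.0242). Without PBS replicate 1 its log2 fold change was -3.23. SLPI, an antiprotease of mucosal surfaces, was at 601 and 445 CPM in the PBS samples and at 76.2 and 81 CPM in the cetuximab samples (-2.73 ± 0.48, FDR 0.0167). EMP1, an epithelial membrane protein, was at 50.1 and 29.6 CPM in the PBS samples and at 3.8 and 8.23 CPM in the cetuximab samples (-2.73 ± 0.37, FDR 0.00798). In these 3 genes the gap between the groups was wider than the gap between the replicates of either group. MAFF, a small bZIP transcription factor, was at 62.5 and 18.4 CPM in the PBS samples and at 3.04 and 7.63 CPM in the cetuximab samples (-2.92 ± 0.60, FDR 0.029). HSPA6 also passed (-9.03 ± 2.02, FDR 0.0388), but without PBS replicate 1 its log2 fold change was -1.99 with an FDR of 0.341. By absolute gain in CPM, KRT17 (922 and 492 to 1963 and 2438 CPM), MYL6 (906 and 1174 to 2105 and 2363), SOX4 (403 and 356 to 1595 and 811) and CST6 (247 and 358 to 801 and 872) joined the list of rises. By absolute loss, HMGA1, an architectural chromatin protein, fell from 2318 and 1385 to 525 and 582 CPM and CSTB, a cathepsin inhibitor, from 1369.9 and 996 to 478 and 498 CPM. CHCHD10, a mitochondrial protein, fell from 656 and 617 to 251 and 267 CPM.

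The ligands of EGFR were asked about first because the antibody blocks their receptor. The list held 10 genes, among them the neuregulins NRG1, NRG2 and NRG4, which are ligands of other ERBB receptors. NRG2 was at 0 CPM in all 4 SCC6 samples. Of the 10, 3 fell and none rose in the unblocked fit, against 1.3% of all genes lower. The median log2 fold change was -1.22 against 0 over all genes tested. AREG, encoding amphiregulin, was at 617 and 128 CPM in the PBS samples and at 7.57 and 24.6 CPM in the cetuximab samples, a log2 fold change of -4.53 ± 0.78 (edgeR FDR 0.0162). EREG, encoding epiregulin, was at 221 and 105 CPM in the PBS samples and at 8.44 and 22.9 CPM in the cetuximab samples (-3.38 ± 0.57, FDR 0.0144). HBEGF, encoding a heparin-binding ligand, was at 147 and 23.4 CPM in the PBS samples and at 5.34 and 13.3 CPM in the cetuximab samples (-3.19 ± 0.76, FDR 0.0481), and did not pass with the replicate block (FDR 0.0516). All 3 genes were lower in each cetuximab sample than in each PBS sample, and PBS replicate 1 held the highest value of each. Without PBS replicate 1 the log2 fold changes of AREG, EREG and HBEGF were -3.0, -2.75 and -1.34, and none passed (FDR 0.104, 0.113 and 0.383). In the blocked fit TGFA (13.2 and 6.09 to 2.46 and 3.69 CPM) and BTC (2.63 and 1.78 to 0.798 and 1.12 CPM) also passed as lower. EGF itself passed there as higher, at levels under 1 CPM. The 10 genes of the list, neuregulins included, summed to 1013 and 271 CPM in the PBS samples and 29.1 and 72.1 CPM in the cetuximab samples.

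Among 12 ERBB receptors and negative regulators only LRIG3, a transmembrane regulator of receptor kinases, passed without the block. It was at 3.19 and 3.73 CPM in the PBS samples and at 8.56 and 8.29 CPM in the cetuximab samples (1.28 ± 0.22, edgeR FDR 0.0149). EGFR itself was at 103 and 85.5 CPM in the PBS samples and at 84.6 and 88.2 CPM in the cetuximab samples (FDR 0.809). ERRFI1, a feedback inhibitor of EGFR induced by its signal, was at 123 and 41.2 CPM in the PBS samples and at 26.3 and 27.5 CPM in the cetuximab samples, with an FDR of 0.0608 and, with the block, 0.0299. The receptor ERBB2 (18.6 and 19.1 to 24.3 and 26.3 CPM), SOCS3 and CBLB were higher with the block alone (FDR 0.0418, 0.0438 and 0.0246). Of the 22 genes of MAPK feedback and output, 3 fell and 1 rose, and 7 fell and 1 rose with the block, with a median of -0.44. Over all genes 1.3% fell and 2.51% rose, and 10.1% and 9.94% with the block. PHLDA1, a gene induced by growth factor signals, was at 762 and 168 CPM in the PBS samples and at 25.5 and 40.7 CPM in the cetuximab samples (-3.81 ± 0.60, FDR 0.0113). DUSP4, a phosphatase that inactivates ERK, was at 121 and 46 CPM in the PBS samples and at 10.5 and 20.7 CPM in the cetuximab samples (-2.42 ± 0.48, FDR 0.0259). PHLDA2 fell as well (131 and 97.8 to 30.9 and 48.8 CPM) and EPHA4, an ephrin receptor, rose (2.3 and 2.44 to 13.3 and 7.78 CPM). In the blocked fit DUSP5, DUSP2 and the ETS factors ETV4 and ETV5 also passed as lower. ETV4 was at 21.9 and 19.5 CPM in the PBS samples and at 4.31 and 8.42 CPM in the cetuximab samples. With PBS replicate 1 left out, no gene of this list passed, and PHLDA1 and DUSP4 had log2 fold changes of -2.35 and -1.56.

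Of 20 AP-1 and immediate early genes, only FOSL1 and MYC fell, in both fits, against 1.3% of all genes without the block and 10.1% with it. FOSL1, the AP-1 subunit most dependent on lasting ERK activity, was at 97.4 and 45.6 CPM in the PBS samples and at 3.21 and 15 CPM in the cetuximab samples (-2.97 ± 0.70, edgeR FDR 0.0456). MYC, the transcription factor that drives ribosome production, was at 482 and 242 CPM in the PBS samples and at 65.7 and 138 CPM in the cetuximab samples (-1.83 ± 0.42, FDR 0.0407). For both genes cetuximab replicate 2 lay between cetuximab replicate 1 and the PBS samples. The changes without PBS replicate 1 of FOSL1 and MYC were -2.32 and -1.26 (FDR 0.282 and 0.296).

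**Figure D2:**
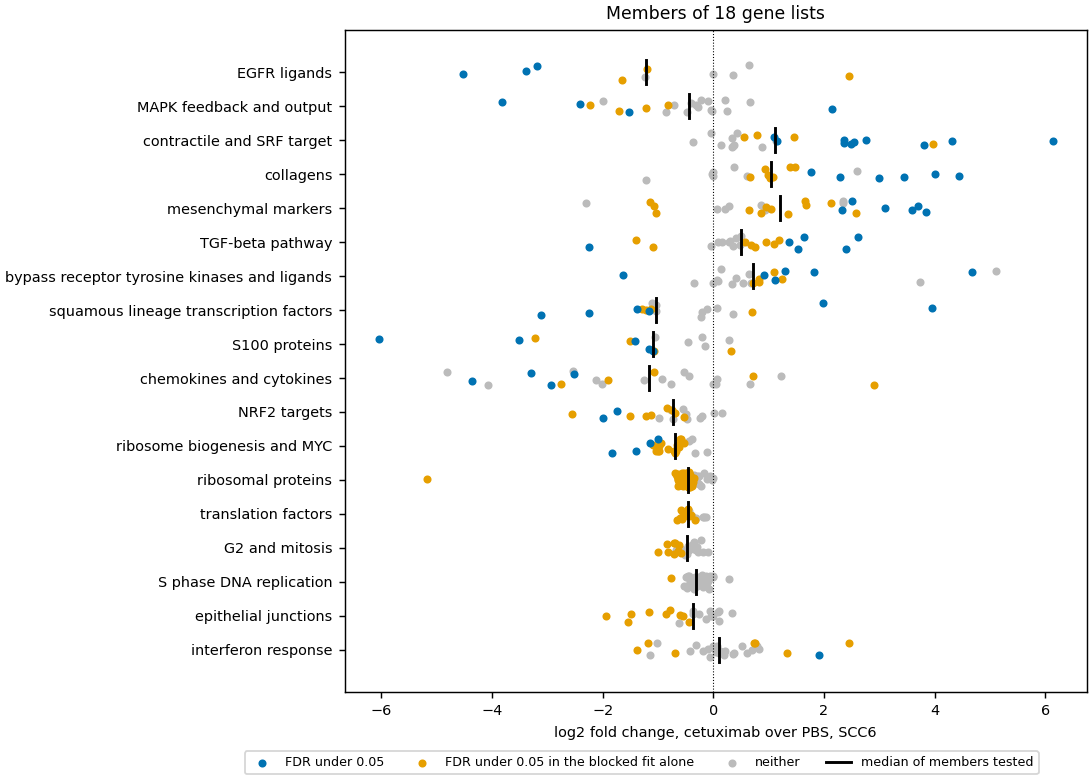
Log2 fold change (cetuximab over PBS) of each tested member of 18 gene lists, with 1 point per gene, blue where the gene passed an FDR of 0.05, orange where it passed only with the replicate block and gray otherwise, and a black bar at the median of each list. Medians are above 0 for the contractile (1.12), mesenchymal (1.2) and collagen (1.05) lists. They are below 0 for EGFR ligands (-1.22, neuregulins included) and S100 proteins (-1.09). The lone ribosomal protein point far to the left is RPL3L, which had 0 UMIs with cetuximab, so that its plotted value rests on the prior count.

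Many contractile genes rose. Of 24 genes of actin filaments, actomyosin contraction and SRF targets, 10 rose and none fell, 14 rose with the replicate block, and the median was 1.12. Over all genes 2.51% rose without the block and 9.94% with it. In 17 of 24 both cetuximab samples were above both PBS samples, against 25.5% of all genes. Tropomyosin TPM1 was at 199 and 285 CPM in the PBS samples and at 1516 and 1771 CPM in the cetuximab samples (2.76 ± 0.24, edgeR FDR 0.00175). The actin-bundling protein TAGLN was at 197 and 198 CPM in the PBS samples and at 947 and 1365 CPM in the cetuximab samples (2.55 ± 0.35, FDR 0.00799). The regulatory light chain MYL9 was at 84.5 and 88 CPM in the PBS samples and at 393 and 575 CPM in the cetuximab samples (2.49 ± 0.32, FDR 0.00678), and caldesmon, CALD1, at 120.3 and 99.4 CPM in the PBS samples and at 608 and 520.2 CPM in the cetuximab samples (2.36 ± 0.33, FDR 0.00851). ACTG2, the smooth muscle gamma actin, was at 3.71 and 4.07 CPM in the PBS samples and at 53.8 and 55.7 CPM in the cetuximab samples (3.81 ± 0.41, FDR 0.00376). In these 5 genes the replicates of a group differed less than the groups did. The smooth muscle genes ACTA2 (1.43 and 2.91 to 11.5 and 10.8 CPM) and CNN1 (0.0358 and 0.0871 to 1.16 and 1.37 CPM) rose from low levels, and FLNA and MYH9, which link and pull actin in most cells, rose by 1.1 ± 0.22 and 1.14 ± 0.24 on the log2 scale. The cytoplasmic actins did not pass in either fit, with ACTB at 4205 and 4316 CPM in the PBS samples and at 3651 and 7366 CPM in the cetuximab samples and ACTG1 at 2676 and 1126 CPM in the PBS samples and at 1256 and 1678 CPM in the cetuximab samples, 2 near-identical genes that may share reads. Of 7 smooth muscle markers, MYH11, DES and LMOD1 stayed under 1 CPM in all 4 samples. The summed level of those 7 markers was 13.3 and 26.8 CPM with PBS and 73.4 and 88.0 CPM with cetuximab. With PBS replicate 1 left out, MYL7 and TPM1 still passed (log2 fold changes 5.47 and 2.52, FDR 0.0298 and 0.0298), and TAGLN, MYL9, CALD1 and ACTG2 kept changes of 2.54, 2.45, 2.5 and 3.74 but had FDR values of 0.101, 0.101, 0.101 and 0.0742.

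SRF binds the CArG box, and the list was built around its targets, so the boxes near the start sites of its members are shown as sequence context. In the 250 bases before the annotated start (RefSeq, GRCh38.p14, 1 start per gene), 7 of the 19 members with a promoter entry (36.8%) held a CArG box, searched on both strands, against 1.14% of all 27305 promoters. A match is a description of these letters and not a measured binding site. The 30-base stretches are written 5′ to 3′ in the direction of the gene with the box in capitals, first for MYL7, ACTG2 and FLNA, which rose, and for MYLK, which passed with the block alone:
MYL7: ctgttcctctCCTTATTTGGaccttcaggt
ACTG2: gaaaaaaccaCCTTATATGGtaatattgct
ACTG2: cgtcagctggCCTTTTTAGGgactttgttt
FLNA: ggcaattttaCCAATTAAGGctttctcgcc
MYLK: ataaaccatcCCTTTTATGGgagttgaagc

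The MYL7 stretch lies at chr7:44141374-44141403 on the minus strand, with its box starting 61 bases before the start site. The ACTG2 stretches lie at chr2:73892888-73892917 and chr2:73892925-73892954 on the plus strand, those of FLNA at chrX:154374709-154374738 and of MYLK at chr3:123620623-123620652 on the minus strand. MYLK, the kinase of the myosin light chain, was at 14.9 and 14.1 CPM in the PBS samples and at 33.4 and 45.9 CPM in the cetuximab samples (edgeR FDR 0.066, with the block 0.031). Members that passed in neither fit also carry the box:
CNN2: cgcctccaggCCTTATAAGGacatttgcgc
TPM4: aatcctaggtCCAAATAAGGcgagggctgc
ACTG1: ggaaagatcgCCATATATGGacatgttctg

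These lie at chr19:1026509-1026538 and chr19:16067355-16067384 on the plus strand and at chr17:81512874-81512903 on the minus strand. CNN2 was at 157 and 108 CPM in the PBS samples and at 163 and 175 CPM in the cetuximab samples, and TPM4 at 318 and 185 CPM in the PBS samples and at 301 and 337 CPM in the cetuximab samples. Genes that rose and genes that passed in neither fit thus have boxes in this window, and TPM1, CALD1 and CNN1, which rose, have none in the window searched. None of the 15 collagens, 17 mesenchymal markers and 9 members of the list of EGFR ligands and neuregulins with an entry held the box.

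Of 20 collagen chains tested, 6 rose and none fell, 13 rose with the block, and the median was 1.05. Over all genes 2.51% rose without the block and 9.94% with it. The basement membrane chains COL4A1 (14.9 and 14.7 to 136 and 101 CPM, log2 fold change 3.0 ± 0.52, edgeR FDR 0.0163) and COL4A2 (38.4 and 39 to 220.4 and 159.6 CPM, 2.3 ± 0.41, FDR 0.0183) rose from about equal levels in the PBS replicates. COL1A1, the main chain of fibrillar collagen, was at 1.03 and 2.75 CPM in the PBS samples and at 22.6 and 18.8 CPM in the cetuximab samples (3.45 ± 0.41, FDR 0.00631). It was also called without PBS replicate 1 (2.91, FDR 0.0298), whereas COL5A1 and COL4A1 were not (3.52 and 3.0, FDR 0.104 and 0.16). COL16A1 (1.32 and 1.23 to 4.92 and 3.76 CPM) and COL3A1 (0 and 0.207 to 2.65 and 2.01 CPM) rose at low levels. The collagens summed to 104 and 111 CPM in the PBS samples and 632 and 459.7 CPM in the cetuximab samples. COL1A1, COL3A1 and PDGFRB are among the 9 fibroblast markers, which summed to 1.02 and 3.11 CPM with PBS and 28.0 and 23.4 CPM with cetuximab, whereas DCN, LUM, PDGFRA, COL1A2, THY1 and FAP, the 6 others, stayed under 1 CPM in all 4 samples.

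Of 26 mesenchymal markers, 6 rose and none fell, and with the block 15 rose and 3 fell (median 1.2). Over all genes 2.51% rose without the block, and 9.94% rose and 10.1% fell with it. Beside VIM, those that rose without the block included TNC, the matrix protein tenascin (1.17 and 1.78 to 10.7 and 14.7 CPM), FBN1, the microfibril protein fibrillin (0.31 and 0.849 to 6.49 and 7.58 CPM), MCAM, an adhesion molecule (0.274 and 0.424 to 1.24 and 2.29 CPM), and SPARC, a collagen-binding glycoprotein (0.0477 and 0.109 to 1.37 and 0.951 CPM). FN1, encoding fibronectin, was at 506 and 516 CPM in the PBS samples and at 3459 and 2667 CPM in the cetuximab samples. Its edgeR FDR was 0.106 without the block and 1.31e-04 with it. Without PBS replicate 1 no mesenchymal marker passed, and VIM had a log2 fold change of 3.14 (FDR 0.116). Of 13 transcription factors of epithelial-mesenchymal transition, none rose without the block, 1 with it (TCF4, 3.38 and 5.65 to 17.2 and 11 CPM), and the epithelial factor ELF3, also in the list, fell.

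Among 15 metalloproteinases and inhibitors, 2 rose and 1 fell, against 2.51% and 1.3% of all genes. MMP14, a membrane-bound collagenase, was at 27.2 and 34 CPM in the PBS samples and at 132 and 128 CPM in the cetuximab samples (2.09 ± 0.19, edgeR FDR 0.00214) and was called in all 14 alternative settings. TIMP2, an inhibitor that MMP14 binds, rose from 56 and 36.3 to 125 and 94.6 CPM (FDR 0.0487), and MMP28 fell from 5.54 and 2.35 to 1.08 and 0.52 CPM. With the block further members passed, some as lower and some as higher. MMP1 was among the lower ones, from 7.21 and 15.9 to 0.657 and 0.398 CPM (FDR 0.0784 and 5.82e-04). Of 12 integrins ITGA1 rose, and with the block also ITGB1, ITGB5, ITGAV and ITGB6. ITGB6, the epithelial partner of the alpha v chain, was at 10.1 and 11.4 CPM in the PBS samples and at 50.6 and 39.6 CPM in the cetuximab samples. None of 14 laminins and basement membrane proteins passed without the block, and 5 did with it, all higher, against 9.94% of all genes higher with it. PLAUR, the receptor of urokinase, was lower with the block alone (38.2 and 45 to 13.2 and 24.7 CPM, FDR 0.0379).

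Of 23 genes of the TGF-beta pathway, 5 rose and 1 fell, and with the block 11 rose and 3 fell. Over all genes 2.51% rose and 1.3% fell, and 9.94% and 10.1% with the block. Among ligands, TGFB2 was at 4.12 and 3.57 CPM in the PBS samples and at 19.3 and 27.8 CPM in the cetuximab samples (2.61 ± 0.39, edgeR FDR 0.00926), and BMP4 at 1.37 and 2.21 CPM in the PBS samples and at 11.2 and 7.67 CPM in the cetuximab samples (FDR 0.031). LTBP2, a binding protein of latent ligand family members, rose from 12.9 and 16.6 to 35.4 and 41.1 CPM. Of the inhibitors that the pathway induces, SMAD7 rose from 4.62 and 5.63 to 14.5 and 17.3 CPM and SKIL from 84.1 and 62.5 to 258 and 163 CPM. The co-receptor TGFBR3 fell from 2.16 and 1.56 to 0.438 and 0.343 CPM. ID1, a target of the BMP branch, was at 1409.5 and 991 CPM in the PBS samples and at 612 and 520.1 CPM in the cetuximab samples and passed as lower only with the block (FDR 9.92e-04). Of 16 targets of YAP and TEAD none passed without the block and 4 were higher with it, CTGF among them (52.3 and 62.7 to 123 and 114 CPM). No gene of the TGF-beta list passed without PBS replicate 1, TGFB2 having a log2 fold change of 2.72 (FDR 0.104).

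Of 23 receptor kinases and ligands outside the ERBB family, 5 rose and 1 fell, and 10 rose and 1 fell with the block (median 0.71). Over all genes 2.51% rose and 1.3% fell, and 9.94% and 10.1% with the block. GAS6, the ligand of the AXL family, was at 33 and 39.5 CPM in the PBS samples and at 83.7 and 95 CPM in the cetuximab samples (1.3 ± 0.21, edgeR FDR 0.0122). AXL itself was at 97.4 and 98 CPM in the PBS samples and at 128 and 154 CPM in the cetuximab samples and did not pass (FDR 0.427). The receptor FGFR2 rose from 1.28 and 1.6 to 5.73 and 4.5 CPM and the ephrin receptor EPHB4 from 9.23 and 11.6 to 21.4 and 17.8 CPM. PDGFC, a platelet-derived growth factor, rose from 9.13 and 10.4 to 25.7 and 16.4 CPM, and its receptor family member PDGFRB appeared at 1.31 and 1.36 CPM from 0.0358 and 0.0653 CPM. FGFBP1, a carrier of fibroblast growth factors, fell from 5.62 and 4.83 to 0.85 and 2.52 CPM. Of 7 binding proteins of insulin-like growth factors, IGFBP5 and IGFBP7 rose. IGFBP7 was at 102 and 261 CPM in the PBS samples and at 546 and 964 CPM in the cetuximab samples (2.06 ± 0.41, FDR 0.0259). IGFBP3 was at 64.4 and 20.5 CPM in the PBS samples and at 190.2 and 108 CPM in the cetuximab samples, with FDR 0.0917 and, with the block, 0.00539. None of these genes passed without PBS replicate 1, where IGFBP5 had a log2 fold change of 3.29 (FDR 0.0923) and GAS6 of 1.17 (FDR 0.139).

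Of 21 WNT genes 4 rose and 1 fell, against 2.51% and 1.3% of all genes. The non-canonical ligands WNT5A (1.58 and 1.07 to 9.72 and 6.8 CPM), WNT5B (2.18 and 3.05 to 14.6 and 12.5 CPM) and WNT11 (0.0358 and 0.0653 to 0.786 and 0.686 CPM) rose. WNT6, a ligand outside the list, was at 6.06 and 8.59 CPM in the PBS samples and at 54.7 and 40.1 CPM in the cetuximab samples (2.69 ± 0.51, edgeR FDR 0.021). The secreted inhibitors went opposite ways: DKK3 rose from 4.02 and 4.76 to 19.4 and 26.2 CPM (FDR 0.00373), and DKK1 fell from 402 and 155 to 30.4 and 66.9 CPM (-2.52 ± 0.49, FDR 0.024). With PBS replicate 1 left out, the log2 fold changes of DKK3 and DKK1 were 2.26 and -1.68. Among 14 NOTCH genes the ligand DLL1 and the glycosyltransferase LFNG rose (1.73 and 1.8 to 4.97 and 3.93 CPM for DLL1, 4.39 and 8.91 to 28.8 and 20 CPM for LFNG). Of 14 genes of the BCL2 family only BMF, a BH3-only promoter of apoptosis, passed, at 3.31 and 5.03 CPM in the PBS samples and at 21.7 and 11.8 CPM in the cetuximab samples (2.01 ± 0.46, FDR 0.0421). BCL2L11, another BH3-only gene that ERK restrains, was at 15.8 and 12.9 CPM in the PBS samples and at 29.7 and 20.4 CPM in the cetuximab samples, with FDR 0.0905 and, with the block, 0.00767. DLL1 and BMF had log2 fold changes of 1.3 and 1.73 without PBS replicate 1.

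The epithelial and squamous genes were asked next. Of 18 squamous lineage transcription factors, 4 fell and 2 rose, and with the block 7 fell and 3 rose (median -1.03). Over all genes 1.3% fell and 2.51% rose, and 10.1% and 9.94% with the block. ELF3, a factor of epithelial differentiation, was at 258 and 159 CPM in the PBS samples and at 41.7 and 45.5 CPM in the cetuximab samples (-2.26 ± 0.53, edgeR FDR 0.0463). KLF5 fell from 94 and 57.8 to 29.7 and 28.8 CPM, PITX1 from 114 and 91.3 to 48.2 and 44.1 CPM and SOX2, the squamous stem cell factor, from 2.14 and 3.28 to 0.438 and 0.188 CPM. MAF (0.0239 and 0.109 to 1.6 and 0.553 CPM), which accompanies late keratinocyte differentiation, rose. TP63, the factor that sets squamous identity, was at 14.1 and 6.81 CPM in the PBS samples and at 21.5 and 12.5 CPM in the cetuximab samples and passed, as higher, only with the block (FDR 0.452 and 0.0134). TFAP2A, another epithelial factor, was at 54 and 55.4 CPM in the PBS samples and at 47.4 and 46 CPM in the cetuximab samples and passed in neither fit (FDR 0.479 and 0.211). None of the 18 factors passed without PBS replicate 1.

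Keratins moved in different directions. KRT17, a keratin of wounded and malignant epithelium, rose from 922 and 492 to 1963 and 2438 CPM (1.64 ± 0.39, edgeR FDR 0.0463). KRT6A, usually listed beside it, fell from 23.9 and 17.6 to 2.86 and 3.99 CPM (-2.6 ± 0.27, FDR 0.00373) and was called in all 14 alternative settings, though the near-identical KRT6B (5.25 and 10.2 to 0.206 and 0.542 CPM) may share reads with it. KRT5 and KRT14 were higher with the block alone, and KRT19, of simple epithelium, was lower with the block alone (3009.9 and 2377 to 1446 and 1545 CPM, FDR 0.441 and 0.00526). Of 18 genes of the cornified envelope only the crosslinking enzyme TGM1 passed, rising from 0.788 and 0.751 to 2.31 and 4.33 CPM, and with the block involucrin, IVL, was also higher (4.77 and 7.32 to 13.6 and 22 CPM). KRT8 (3925 and 3517 to 3282 and 4106 CPM) and KRT18 (4337 and 3786 to 2868 and 3510.5 CPM), the main keratin pair of simple epithelium, passed in neither fit, and of 7 kallikreins none passed without the block and 1 was lower with it. Over all genes 2.51% rose and 1.3% fell, and 9.94% and 10.1% with the block.

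Of 14 S100 proteins, calcium-binding proteins of epithelia, 5 fell and none rose, with a median of -1.09, against 1.3% of all genes lower. In 10 of 14 both cetuximab samples were below both PBS samples, against 21.4% of all genes. S100A6 was at 1589 and 1287 CPM in the PBS samples and at 604 and 478 CPM in the cetuximab samples (-1.41 ± 0.24, edgeR FDR 0.016). S100A2 was at 976 and 766 CPM in the PBS samples and at 463 and 351 CPM in the cetuximab samples (-1.1 ± 0.24, FDR 0.0329) and S100A14 at 728 and 419 CPM in the PBS samples and at 277 and 235 CPM in the cetuximab samples (-1.16 ± 0.24, FDR 0.0301). S100P was at 119 and 38 CPM in the PBS samples and at 8.23 and 5.42 CPM in the cetuximab samples (-3.52 ± 0.74, FDR 0.0309), and S100A7 fell from under 1 CPM. S100A10, the partner of annexin A2, was higher with the block alone (1213 and 1672 to 1584 and 2019 CPM). No S100 gene passed without PBS replicate 1, and the median was -0.77. Of 10 surface proteins of the LY6 family only LY6K fell, from 41.9 and 34.5 to 6.44 and 8.29 CPM (-2.37 ± 0.23, FDR 0.00289), and 6 were lower with the block. Over all genes 1.3% were lower without the block and 10.1% with it. LY6K was called in all 14 alternative settings.

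Of 21 genes of epithelial junctions none passed without the block, and 9 were lower and none higher with it, among them the claudins CLDN1 (67.5 and 25.9 to 16.7 and 15.5 CPM) and CLDN7 (250.1 and 291 to 109 and 205 CPM), occludin, OCLN (10.7 and 7.02 to 3.44 and 4.42 CPM), and EPCAM (183 and 298 to 98.6 and 229.6 CPM). In EPCAM the samples of equal number differed by fewer CPM than the samples of a group, though by fold this did not hold for replicate 1 against the PBS samples. E-cadherin, CDH1, was at 43.6 and 26.2 CPM in the PBS samples and at 32.7 and 34.1 CPM in the cetuximab samples (edgeR FDR 0.926). Of 10 desmosome genes none passed without the block either, and 4 were higher and 1 lower with it. Over all genes 9.94% were higher and 10.1% lower with the block. Desmoplakin, DSP, was at 157 and 105 CPM in the PBS samples and at 289 and 165 CPM in the cetuximab samples (FDR 0.195 and 0.00568). AQP3, described above, fell with the phosphate transporter SLC20A1 (75.6 and 35.9 to 16.6 and 21.7 CPM) among 9 channels and carriers of keratinocytes.

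Of 24 chemokines and cytokines, 4 fell and none rose, and 7 fell and 2 rose with the block (median -1.16). Over all genes 1.3% fell without the block, and 10.1% fell and 9.94% rose with it. The neutrophil-attracting chemokines CXCL3 (76.1 and 15.7 to 4.06 and 5.31 CPM, log2 fold change -3.29 ± 0.74, edgeR FDR 0.0399) and CXCL2 (19.5 and 10.2 to 1.51 and 2.37 CPM, -2.93 ± 0.52, FDR 0.0179) fell. IL1B was at 88.4 and 53.4 CPM in the PBS samples and at 9.74 and 14.8 CPM in the cetuximab samples (-2.53 ± 0.57, FDR 0.0406), and its antagonist IL1RN fell from 4.13 and 1.09 to 0.103 and 0.144 CPM. IL32, a cytokine of inflamed epithelia, went up in both pairs, from 9.52 and 14.9 to 81.7 and 99.9 CPM, with FDR 0.0761 and, with the block, 0.00626. No cytokine passed without PBS replicate 1, and IL1B and CXCL3 had changes of -2.12 and -1.75 (FDR 0.246 and 0.305). Among 11 genes of prostaglandin synthesis PTGES, the inducible prostaglandin E synthase, fell from 388 and 269.9 to 78.4 and 105 CPM (-1.84 ± 0.27, FDR 0.00858), with PTGS1 falling from under 1 CPM. PTGS2, the inducible cyclooxygenase upstream of it, was at 21.3 and 22.3 CPM in the PBS samples and at 32.2 and 37.8 CPM in the cetuximab samples, higher with cetuximab and passing only with the block (FDR 0.38 and 0.0104).

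Of 20 NRF2 targets, 2 fell and 10 were lower with the block, against 1.3% and 10.1% of all genes, none being higher in either fit. GPX2, a glutathione peroxidase, was at 79 and 91.6 CPM in the PBS samples and at 28.3 and 22.9 CPM in the cetuximab samples (-1.74 ± 0.25, edgeR FDR 0.00851), and CYP4F11, a fatty acid hydroxylase, fell from 2.22 and 1.4 to 0.451 and 0.454 CPM. Of 18 genes of the integrated stress response, GDF15, TRIB3 and CEBPB fell. With PBS replicate 1 left out, GDF15 had a log2 fold change of -1.52 against -3.53 with all samples, and TRIB3 and CEBPB of -0.91 and -0.66 (FDR 0.357, 0.348 and 0.287). Of 30 interferon response genes, IFI27 alone rose without the block, from 0.788 and 1.09 to 2.77 and 4.29 CPM (FDR 0.0381), the median being 0.11, and with the block 5 were higher and 3 lower. Over all genes 2.51% were higher without the block, and 9.94% higher and 10.1% lower with it. The interferon counts are thus not far from those of genes in general. IFI6 was at 3.54 and 6.48 CPM in the PBS samples and at 17.3 and 37.3 CPM in the cetuximab samples (FDR 0.0577, with the block 0.0053), and IRF1, an interferon-induced factor, was lower with the block alone (33.3 and 18.3 to 13 and 9.8 CPM). None of 15 genes of HLA class I presentation passed without the block. The immunoproteasome genes PSMB8 (76.3 and 75.5 to 43.9 and 39.8 CPM) and PSMB9 (22.6 and 15.4 to 9.89 and 6.99 CPM) were lower with it. None of 7 metallothioneins passed in either fit.

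Of 25 genes of ribosome biogenesis and MYC, 4 fell (1.3% of all genes) and none rose, and with the block 21 fell (10.1% of all genes), the median being -0.70. Beside MYC the genes that fell without the block were LYAR (46.1 and 55.3 to 14.5 and 23.7 CPM, edgeR FDR 0.0186), PPAN (136 and 136 to 44.8 and 77.5 CPM, FDR 0.0372) and NOLC1 (80.7 and 74.3 to 32.5 and 44.5 CPM, FDR 0.0303), all proteins of the nucleolus. SNU13, outside the list and a protein of nucleolar and spliceosomal particles, fell from 748 and 689.5 to 399 and 449.6 CPM. The list summed to 4608 and 4414 CPM in the PBS samples and 2132 and 2981 CPM in the cetuximab samples. In cetuximab replicate 2 the sum was between that of cetuximab replicate 1 and the PBS samples. Without PBS replicate 1 none of the 25 passed, and the median was -0.96, further from 0 than with it.

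Of 85 ribosomal protein genes none passed without the block and 71 were lower with it, against 10.1% of all genes, with a median of -0.47. Their summed level was 410563 and 313314 CPM in the PBS samples and 279938 and 230422 CPM in the cetuximab samples. Within each replicate number cetuximab was lower, but replicate 1 of cetuximab and replicate 2 of PBS were close to each other. The order of these 2 samples depended on the scaling. Without normalization factors, the median share of ribosomal protein UMIs per cell was 28.8% in cetuximab replicate 1 and 27.9% in PBS replicate 2. RPS2 (17327 and 12277 to 10589.5 and 8636 CPM, edgeR FDR with the block 0.00737) and RPS18 (15276 and 10648 to 9527 and 7087 CPM, FDR 0.00397) were the most abundant of them. Leaving ribosomal protein and mitochondrial genes out of the library size gave 685 called genes in place of 682. Of 20 translation factors 13 were lower with the block and none passed without it. EEF1A1, the most used elongation factor, was at 8596 and 5608 CPM in the PBS samples and at 5679 and 4525 CPM in the cetuximab samples and EIF5A at 1103 and 1151 CPM in the PBS samples and at 590.5 and 836 CPM in the cetuximab samples (FDR 0.0277 and 0.00921 with the block).

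Of 81 nuclear genes of oxidative phosphorylation, 2 fell (ATP5MC1, 389 and 483 to 225 and 259 CPM, edgeR FDR 0.0307, and ATP5F1D, 443 and 424 to 255 and 273 CPM, FDR 0.0414), and 25 were lower and none higher with the block. Over all genes 1.3% were lower without the block and 10.1% with it. Of the 13 genes encoded by mitochondrial DNA, none passed without the block and the median was 0.01. Of 26 genes of glycolysis and hypoxia, CA9 fell from under 1 CPM, and 8 were lower with the block, among them VEGFA (60.3 and 13.1 to 11 and 7.02 CPM), in which PBS replicate 1 was again highest. Of 31 genes of sterol and fatty acid synthesis ELOVL6, a fatty acid elongase, fell from 16.9 and 17.5 to 7.25 and 6.66 CPM (FDR 0.0186). The lists of lysosome and autophagy (28 genes) and of PI3K and FOXO response (17 genes) had no call without the block. With it, 2 genes of the first were higher and 1 lower, and 3 of the second were higher and 1 lower, against 20.1% of all genes tested. Of 12 stem and tumour surface markers none passed without the block, CD44 being at 174 and 164 CPM in the PBS samples and at 61.1 and 103 CPM in the cetuximab samples and CD24 at 466 and 296 CPM in the PBS samples and at 831 and 585 CPM in the cetuximab samples (FDR with the block 0.0109 and 0.00224).

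Of 30 genes of G2 and mitosis none passed without the block and 9 were lower with it, against 10.1% of all genes (median -0.48). PLK1, a mitotic kinase, was at 69.7 and 153 CPM in the PBS samples and at 38.6 and 72.3 CPM in the cetuximab samples (edgeR FDR 0.344, with the block 0.0138), and CCNB1, the mitotic cyclin, at 107 and 347 CPM in the PBS samples and at 65.8 and 190.5 CPM in the cetuximab samples (FDR 0.565 and 0.0141). The log2 fold change of CCNB1 was -0.82, and turned to 0.26 when PBS replicate 2 was left out (FDR 0.909). In both genes cetuximab replicate 2 was above PBS replicate 1, so the groups overlapped, although cetuximab was lower within each pair. Of 30 genes of DNA replication 1, CDT1, was lower with the block (79.9 and 60.4 to 35.3 and 47.3 CPM), the median being -0.31. Of 14 cyclins and CDK inhibitors, CDKN1C, which encodes the inhibitor p57, rose from 3.16 and 2.23 to 8.87 and 5.86 CPM (FDR 0.0263). Its log2 fold change was 1.45, and 1.72 without PBS replicate 1. CDKN1A, encoding p21, was at 48.4 and 65.8 CPM in the PBS samples and at 91.6 and 111 CPM in the cetuximab samples (FDR 0.0805, with the block 0.0135). The cyclin CCNE2 was likewise higher with the block alone, from 3.29 and 5.07 to 6 and 9.03 CPM (FDR 0.192, with the block 0.0313). Of 57 clustered histone genes tested 1 rose, HIST1H2BG, from 6.1 and 7.66 to 23 and 11.2 CPM (FDR 0.0428, and 0.292 without PBS replicate 1), against 2.51% of all genes higher. With the block 7 histone genes were higher and 4 lower, against 9.94% and 10.1% of all genes, and the median was -0.24.

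To see how the changes were spread over cells, each cell was reduced at random to 15000 UMIs, which left out 79 and 50 shallower cells with PBS and 262 and 14 with cetuximab. Shares of cells with at least 1 UMI have exact Clopper-Pearson intervals at 95% that cover counting error only, and 2 samples against 2 cannot give a two-sided exact permutation p under 0.333, so no test was made. MYL7 had a UMI in 1.43% and 3.94% of cells of PBS replicates 1 and 2 and in 64.5% and 64.4% of cells of cetuximab replicates 1 and 2. The interval was 3.2% to 4.79% in the higher PBS sample and 62% to 66.7% in the lower cetuximab sample. COL5A1 had a UMI in 4.98% and 10.6% of cells with PBS and 79.2% and 65.5% with cetuximab. The shares of IGFBP5 were 2.19% and 7.55% with PBS and 58.1% and 50% with cetuximab, and those of ANOS1 2.64% and 4.72% and 46% and 39%. VIM went from 18.3% and 34.6% of cells with PBS to 92.4% and 92.3% with cetuximab, so that most cells held it under treatment. Before thinning the VIM shares were 28.4% and 51.8% with PBS and 95.2% and 98.5% with cetuximab. TPM1 and TAGLN, chosen for this view after their values were seen, were widespread already with PBS, with a UMI in 86% and 92.5% of cells for TPM1 and 71.8% and 72.6% for TAGLN, and the mean per cell went from 2.53 and 3.9 to 22.7 and 26.8 UMIs for TPM1 and from 2.5 and 2.78 to 13.9 and 20.4 UMIs for TAGLN.

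Shares of cells were lower for the genes that fell. AREG had a UMI in 75.8% and 55.5% of cells with PBS and in 6.79% and 15.7% with cetuximab, PHLDA1 in 94.4% and 78% with PBS and 25% and 34.8% with cetuximab, and AQP3 in 73.1% and 59.4% with PBS and 14.2% and 12.4% with cetuximab. HSPA6 had a UMI in 21% and 0.328% of cells of PBS replicates 1 and 2, and in PBS replicate 1 the 10% of cells with most of it held 84.6% of the HSPA6 UMIs. As background, PTPRC and CD3E, genes of leukocytes, and ALB and HBB had a UMI in at most 0.061% of cells of any sample, at the same 15000 UMIs. The 0 of 2652 cells found for PTPRC in PBS replicate 1 allows a share of cells with a UMI of up to 0.113%, taking 3 counts as the limit that a count of 0 allows. MKI67, a marker of cycling cells, had a UMI in 56.7% and 64% of cells with PBS and 45.4% and 47.9% with cetuximab, while its mean per cell was 1.63 and 1.88 UMIs with PBS and 1.64 and 1.41 UMIs with cetuximab, with overlap between the groups. TOP2A, of S and G2 phase, had a UMI in 47.3% and 57.3% of cells with PBS and 40.2% and 43% with cetuximab, and a mean of 1.56 and 2.19 UMIs with PBS and 1.71 and 1.7 UMIs with cetuximab. No order is read from these 2 shares because the means do not follow them.

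**Figure D3:**
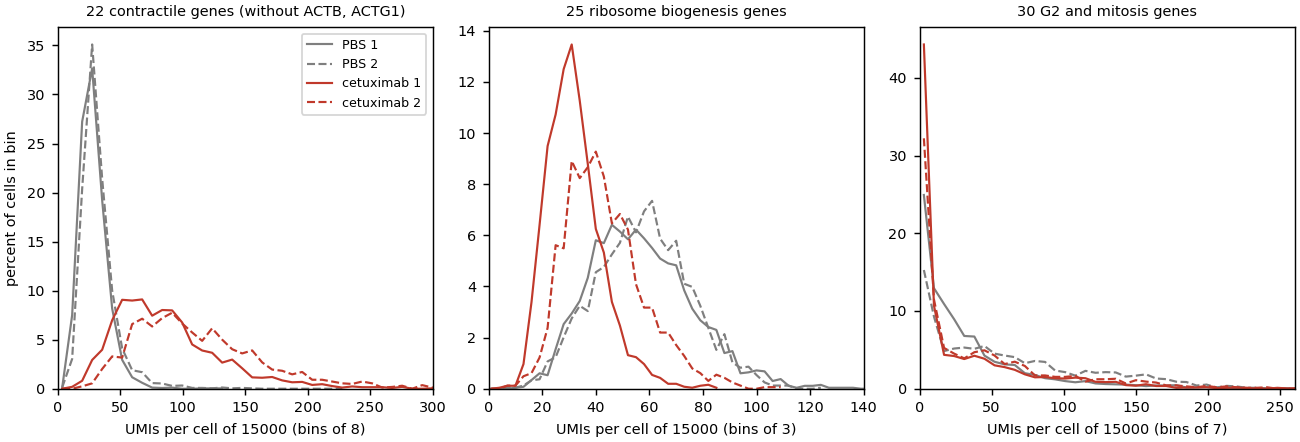
Distribution over cells of the summed UMIs of 22 contractile genes (ACTB and ACTG1 left out), 25 ribosome biogenesis genes and 30 genes of G2 and mitosis, each cell reduced to 15000 UMIs, as percent of cells per bin in each of the 4 samples (gray PBS, red cetuximab, solid replicate 1, dashed replicate 2). The contractile curves shift as a whole, from medians of 27 and 29 to 80 and 102 UMIs, whereas the mitosis curves have a long tail in every sample.

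Summed over the 22 contractile genes without ACTB and ACTG1, the median cell held 27 and 29 UMIs with PBS and 80 and 102 UMIs with cetuximab. The 10th to 90th percentiles were 17 to 42 and 19 to 47 UMIs with PBS and 43 to 144 and 57 to 180.0 UMIs with cetuximab, so that the 10th percentile with cetuximab was above the 90th percentile of PBS replicate 1. Collagens went from a median of 1 and 1 to 9 and 6 UMIs per cell, and cells without any collagen UMI from 31.2% and 28.3% to 0.386% and 1.4%. The 10 genes of EGFR ligands and neuregulins had medians of 6 and 3 UMIs with PBS and 0 in both cetuximab samples, where 73.1% and 52.7% of cells held none. Ribosome biogenesis went from 55 and 58 to 31 and 41 UMIs at the median, with overlapping distributions. For G2 and mitosis the medians were 21 and 48 with PBS and 9 and 22 with cetuximab, and the 90th percentiles 89 and 147 against 98 and 119 UMIs. Cells with high mitotic sums were thus present in all 4 samples, and the medians of PBS replicate 1 and cetuximab replicate 2 were 1 UMI apart.

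To ask where the change in SCC6 differed from that in the other lines, the contrast of SCC6 against the mean of SCC1 and SCC25 was tested in the same fit. Without the block 6 genes passed (0.0335%), and with it 389 (2.17%). The 6 were LY6K, PTGES, KRT6A and IL15RA, with lower changes in SCC6, and KCNJ15 and FOXS1, with higher ones. LY6K differed by -2.1 ± 0.28 on the log2 scale (edgeR FDR 0.0496), its change being -0.35 ± 0.22 in SCC1 and -0.21 ± 0.22 in SCC25. PTGES differed by -2.46 ± 0.33 (FDR 0.0496), with a change of 1.43 ± 0.27 in SCC1 and -0.19 ± 0.26 in SCC25. KRT6A differed by -2.67 ± 0.32 (FDR 0.0496).

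**Figure D4:**
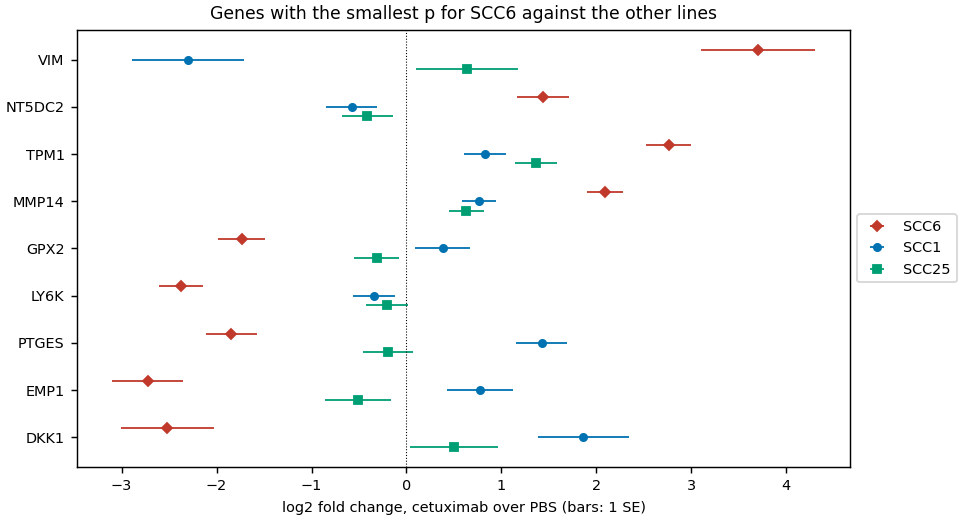
Log2 fold change (cetuximab over PBS) with 1 SE as bars in SCC6 (red diamonds), SCC1 (blue circles) and SCC25 (green squares), for 9 of the 10 genes with the smallest p for SCC6 against the other lines among genes with a mean of at least 20 CPM in SCC6. LY6K and PTGES passed without the replicate block, and all 9 passed with it.

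All 10 genes of at least 20 CPM with the smallest p passed with the block. VIM rose by 3.7 ± 0.60 in SCC6 and changed by -2.3 ± 0.59 in SCC1 and 0.64 ± 0.54 in SCC25. The difference was 4.53 ± 0.70 (edgeR FDR 0.108, with the block 0.0107). The paper describes VIM as not expressed in SCC1 with or without cetuximab. The VIM change in SCC1, and with it the size of the difference, may thus rest on few UMIs. DKK1 differed by -3.7 ± 0.60 (FDR 0.108, with the block 0.0284), with 1.86 ± 0.48 in SCC1. EMP1 differed by -2.86 ± 0.44 (with the block 0.022) and GPX2 by -1.77 ± 0.31 (with the block 0.0123). TPM1 rose in SCC6 by 2.76, with changes of 0.83 ± 0.22 in SCC1 and 1.36 ± 0.23 in SCC25, so that the difference was one of size (1.67 ± 0.27, with the block FDR 0.0106). MMP14 was alike in this (0.76 ± 0.18 and 0.63 ± 0.18, difference 1.39 ± 0.22). NT5DC2 differed by 1.93 ± 0.33. Without PBS replicate 1, cetuximab replicate 1 or cetuximab replicate 2 no gene passed in this contrast with edgeR, with 1067, 1021 and 2190 genes at an unadjusted p under 0.05, and without PBS replicate 2 48 genes passed.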

How the data were processed

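Droplet 3′ scRNA-seq of 12 samples (3 HNSCC lines, cetuximab or PBS, 2 replicates each) was used. The UMI count tables, with 1 column per cell, were deposited by the authors after alignment with Cell Ranger to GRCh38, per the labels and the study's methods. The Cell Ranger version and annotation are not given in the sources used here. Counts were as deposited and not normalized, and no column of per-sample values went unused. Rows of equal gene symbol were summed. Cells were assigned to samples by the name each carries and their UMIs summed per sample.

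Genes were kept by filterByExpr (17897 of 33514 symbols), scaled by TMM and tested in R 4.3.3 with edgeR 4.0.16 (quasi-likelihood F-test, 6 groups, 6 residual degrees of freedom) with Benjamini-Hochberg adjustment at 0.05. Printed CPM are TMM-scaled, except the sums of cell type markers, which are by total UMIs. Alternatives were the replicate number within line as a block, DESeq2 1.42.0, DESeq2 size factors, no filter, the 4 SCC6 samples alone, library sizes without ribosomal protein and mitochondrial genes, thinned totals, removal of the 5% of cells with most UMIs or of cells over 20% mitochondrial UMIs, and each replicate left out. No doublet caller was run. The replicate numbers were taken to pair the samples in the blocked fit. Deviations of same-numbered samples from their group means correlated at 0.38 in SCC1, 0.35 in SCC6 and 0.60 in SCC25 across genes. With 2 replicates a swap of the numbers in 1 group only reverses the sign of such a value, so it is weak ground for the pairing. The study's methods do not say that same-numbered samples were handled together. That fit leaves 3 residual degrees of freedom. The reported fit does not use the pairing, so a gene that did not pass there may still differ within pairs. The scripts were tested on simulated data.

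The comparison, gene lists and markers were chosen with earlier results of these data known. Genes were named by rule: among called genes of at least 20 mean CPM with the same sign in both pairs the 15 largest rises and falls, the 10 largest gains and losses in CPM, up to 4 called members of each list (or the 2 most abundant where none was called), and 10 genes of the contrast between lines. Other list members, and genes named for passing only with the block, were named after their values were seen. Some genes that the rule names are not reported here. Sequences are from RefSeq promoters, and the CArG box was searched on both strands.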

Additional observations from a re-analysis of the deposited data

Results flagged for a closer look

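In 6 genes the change with cetuximab differed between SCC6 and the mean of SCC1 and SCC25 by a test of the difference itself (edgeR, FDR 0.0496 for each). KCNJ15, a potassium channel, differed by 5.04 on the log2 scale and FOXS1, a forkhead transcription factor, by 3.97. KRT6A differed by -2.67, IL15RA, the interleukin 15 receptor alpha chain, also by -2.67, PTGES by -2.46 and LY6K by -2.10. KCNJ15 and FOXS1 are low in level: in SCC6 KCNJ15 was at 0.0358 and 0.141 CPM in the PBS samples and at 3.64 and 3.83 CPM in the cetuximab samples, and FOXS1 at 0.0358 and 0.0435 CPM in the PBS samples and at 1.31 and 1.88 CPM in the cetuximab samples. IL15RA was at 9.54 and 5.93 CPM in the PBS samples and at 1.66 and 1.92 CPM in the cetuximab samples. All 6 adjusted values lie just under the threshold, and without PBS replicate 1 or either cetuximab replicate none of the 6 passed. With the totals thinned to the smallest sample none passed, and without cells over 20% mitochondrial UMIs 1 did. SCC1 and SCC25 entered with equal weight, and a difference from each of them alone was not tested.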

How the results depend on the processing

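The number of genes that differed between cetuximab and PBS was 682 in the reported fit and 684, 685, 601, 634 and 658 with DESeq2 size factors, library sizes without ribosomal protein and mitochondrial genes, thinned totals, and without the cells of most UMIs or of high mitochondrial share. It was 1233 without the low-count filter, 1660 with DESeq2 (898 higher and 762 lower), 265 with the 4 SCC6 samples alone (199 higher and 66 lower), 3589 with the replicate block and 2572 with the 4 samples and the block, and ranged from 11 to 749 with single replicates left out (without PBS replicate 1 11, 9 of them higher). The contrast between lines gave 6 genes, and 308 without the filter, 356 with DESeq2, 389 with the replicate block, 0 with thinned totals by edgeR (1729 at an unadjusted p under 0.05) and 1 without cells of high mitochondrial share, with a range of 0 to 48 over single replicates left out. The cause was not tested. Followed across these settings were 170 genes named in the text that passed with or without the block. Of these, 115 passed in the reported fit and 55 only with the block, several of them named for that. Of the 115, 114 also passed with the block, HBEGF being the exception (FDR 0.0516). Of the 170, CCNB1 alone changed direction under any of these alternatives, to a log2 fold change of 0.26 without PBS replicate 2, with a range of -1.79 to 0.26 over single replicates left out. When PBS replicate 1 was left out, 10 of the 115 still passed, and when cetuximab replicate 1 was left out 19 did, the fit then resting on a lone sample of that group that is assumed to vary like the other groups. Genes at a few UMIs per sample have fold changes that rest on the prior count.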

Other observations

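In SCC6, 10 genes passed in the reported fit and in all 14 alternatives, 1 of which used DESeq2 and the others edgeR: TPM1, MYL7, MMP14, COL1A1, KRT6A, LY6K, MYOZ1, SULT1E1, KCNJ15 and FOXS1. MYOZ1, a protein of the muscle Z-disc, was at 0.322 and 0.544 CPM in the PBS samples and at 11 and 9.07 CPM in the cetuximab samples, a log2 fold change of 4.52 ± 0.39 (edgeR FDR 0.00175). SULT1E1, the estrogen sulfotransferase, was at 1.32 and 2.05 CPM in the PBS samples and at 15.8 and 14.7 CPM in the cetuximab samples (3.18 ± 0.30, FDR 0.00225). In both genes the replicates of a group lay close together. These genes were singled out after their values were seen.

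Among genes of at least 20 CPM on average, 282 of 5159 differed more than 2-fold between the PBS replicates and 277 between the cetuximab replicates. Of the 188 called genes at that level, 24 did so between the PBS replicates and 11 between the cetuximab replicates. DAB2, an endocytic adaptor, rose from 12 and 10.1 to 76.8 and 38 CPM (edgeR FDR 0.00858). CD68, a lysosomal protein also used as a macrophage marker, fell from 30.5 and 13.2 to 3.3 and 4.14 CPM (FDR 0.0202), while PTPRC, the defining leukocyte marker, had 0, 0, 0 and 2 UMIs in PBS replicates 1 and 2 and cetuximab replicates 1 and 2.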
